A study of Mus musculus with 12 samples.

Results

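The lymphoid priming genes are 10 genes of early B and T cell development, *Il7r*, *Dntt*, *Rag1*, *Rag2*, *Cd79a*, *Cd79b*, *Notch1*, *Tcf7*, *Gata3* and *Ebf1*, taken as a named list and not by their values here. Of the 10 genes, 9 had a probe set annotated to that gene alone, 1 probe set each, out of 19937 genes measured in this way. *Tcf7* had none and was not analysed here. Expression was profiled in mouse fetal liver at E14.5 with GeneChip Mouse Gene ST arrays, 4 for each of 3 populations. Megakaryocytes (MEG) were expanded and differentiated in culture from fetal liver progenitors with thrombopoietin, and then enriched with beads on CD41. Erythroblasts (ERY) were taken with beads on Ter119 and were not cultured. The progenitors (HSPC), which carry the label HSC on the arrays, were uncultured cells depleted of mature lineages and sorted for Sca1. The depletion included antibodies to CD45R on B cells and to CD5 on T cells. No strain, genotype or treatment sets the groups apart in the labels, and culture was used for MEG alone, so that culture and cell type cannot be told apart in MEG.

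Lymphoid priming is the low-level use of B and T cell genes by progenitors that still carry several fates. The interleukin-7 receptor (*Il7r*) passes a survival and growth signal to early lymphocytes, and *Notch1* receives the signal that directs progenitors to the T cell fate, where *Tcf7* and *Gata3* act. *Ebf1* sets the B cell programme, the recombinase pair *Rag1* and *Rag2* cuts the antigen receptor genes, *Dntt* adds bases at the joints, and *Cd79a* and *Cd79b* form the signalling part of the B cell receptor.

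Promoters are shown for *Il7r*, which departs from the other members between the populations, for the neighbouring genes *Rag1* and *Rag2*, whose levels varied together over the arrays, and for *Cd79a*. Each line gives 250 bases before and 50 bases after the RefSeq start in GRCm38.p6, 5′ to 3′ in the direction of the gene. They lie at chr15:9529827-9530126 (minus strand), chr2:101649483-101649782 (minus strand), chr2:101624462-101624761 (plus strand) and chr7:24897247-24897546 (plus strand). Capitals mark matches on either strand to the letters searched.
Il7r: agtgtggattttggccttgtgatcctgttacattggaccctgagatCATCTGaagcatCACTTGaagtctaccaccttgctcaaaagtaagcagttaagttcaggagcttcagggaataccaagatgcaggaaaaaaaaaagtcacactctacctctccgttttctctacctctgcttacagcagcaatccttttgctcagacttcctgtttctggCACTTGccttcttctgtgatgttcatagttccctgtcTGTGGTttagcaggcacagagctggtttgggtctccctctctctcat
Rag1: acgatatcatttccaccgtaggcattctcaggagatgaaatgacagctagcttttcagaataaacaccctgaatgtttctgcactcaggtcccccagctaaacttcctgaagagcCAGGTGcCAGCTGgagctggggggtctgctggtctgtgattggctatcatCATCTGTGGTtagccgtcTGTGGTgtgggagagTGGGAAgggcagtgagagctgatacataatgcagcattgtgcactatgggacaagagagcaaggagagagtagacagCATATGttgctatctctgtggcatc
Rag2: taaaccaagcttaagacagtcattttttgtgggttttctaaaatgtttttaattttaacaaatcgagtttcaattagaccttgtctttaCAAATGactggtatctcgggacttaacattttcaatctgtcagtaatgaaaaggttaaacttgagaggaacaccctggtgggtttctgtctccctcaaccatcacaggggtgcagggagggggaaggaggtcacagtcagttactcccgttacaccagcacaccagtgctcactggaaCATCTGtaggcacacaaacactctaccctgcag
Cd79a: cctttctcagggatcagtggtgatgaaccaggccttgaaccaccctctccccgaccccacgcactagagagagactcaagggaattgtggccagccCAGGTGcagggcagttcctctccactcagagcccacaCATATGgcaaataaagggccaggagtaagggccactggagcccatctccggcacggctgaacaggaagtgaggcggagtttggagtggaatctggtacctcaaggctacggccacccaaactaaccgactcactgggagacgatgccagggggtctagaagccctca
The letters searched for an E-box, the kind of site bound by E proteins, were CANNTG, found in 72.3% of all 32851 RefSeq promoter windows of the same length. Those for EBF were CCCNNGGG, found in 13.7% of the windows. Those for RUNX factors were TGTGGT, found in 16.8%, and for GATA factors AGATAA, found in 11.2%. Those for TCF were CTTTGA, found in 16%. The last, for RBPJ and Ikaros, were TGGGAA, found in 25.6%. The *Il7r* window held 3 E-box matches and 1 RUNX match. The *Rag1* window held 4 E-box matches, 2 RUNX matches, the first of which overlaps an E-box match, and 1 match to the RBPJ and Ikaros letters. *Rag2* and *Cd79a* held 2 E-box matches each and no other match. These matches describe the windows and are no sign of binding.

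The deposited values are on a log2 scale after RMA, where a difference of 1 is a 2-fold change, and they carry no call of detection. The level of 1015 olfactory receptor genes, which blood cells are not known to use, served as background. Its 95th percentile stood at 6.10 in MEG, 5.98 in ERY and 5.65 in HSPC. These genes were least even between the MEG arrays, with a median SD of 0.61, against 0.22 in ERY and 0.14 in HSPC. Of the 9 members, 3 lay above it in MEG (*Il7r*, *Cd79b* and *Notch1*), 2 in ERY (*Cd79b* and *Notch1*) and 7 in HSPC (all but *Dntt* and *Rag2*). Set against the 95th percentile of each single array, *Cd79b* was above it on 3 of the 4 MEG arrays. Of all genes, 55.3% lay above it in MEG, 58.2% in ERY and 65.5% in HSPC. Levels of different genes were not ranked, because each probe set has its own response.

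The labels were checked against marker genes. MEG markers such as *Pf4* and *Itga2b* averaged 12.53 to 12.74 on the MEG arrays, against 7.62 to 8.56 on the ERY arrays and 8.24 to 9.44 on the HSPC arrays. ERY markers averaged 12.02 to 12.28 on the ERY arrays, and at most 7.0 on any other array. HSPC markers such as *Kit* and *Cd34* averaged 7.0 to 7.71 on the MEG arrays, 6.0 to 6.14 on the ERY arrays and 8.66 to 9.60 on the HSPC arrays. *Mecom* did not exceed the background in HSPC. Of the 9 HSPC markers measured, 7 were lower in MEG than in HSPC. *Meis1* was higher in MEG, by 1.80 (limma adjusted p = 8.87e-05). *Ly6a*, the gene of Sca1, was not analysed here. Markers of other cells also moved with the populations. Hepatocyte genes averaged 5.63 to 5.98 on the MEG arrays, 10.50 to 11.40 on the ERY arrays and 8.03 to 9.89 on the HSPC arrays, with 9 of 9 above the background in ERY and in HSPC and with *Alb* and *Afp* not above it in MEG. Macrophage genes averaged 6.71 to 8.18 in MEG, 8.12 to 9.01 in ERY and 6.93 to 7.47 in HSPC. Myeloid genes averaged 6.84 to 9.14 on the MEG arrays, 7.07 to 7.26 on the ERY arrays and 10.28 to 10.98 on the HSPC arrays. Of the 10, 7 were lower in MEG against HSPC (median -3.22) and 8 in ERY against HSPC (median -4.01), the direction that most members also took. The part of these cells in the differences below was not tested.

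**Figure D1:**
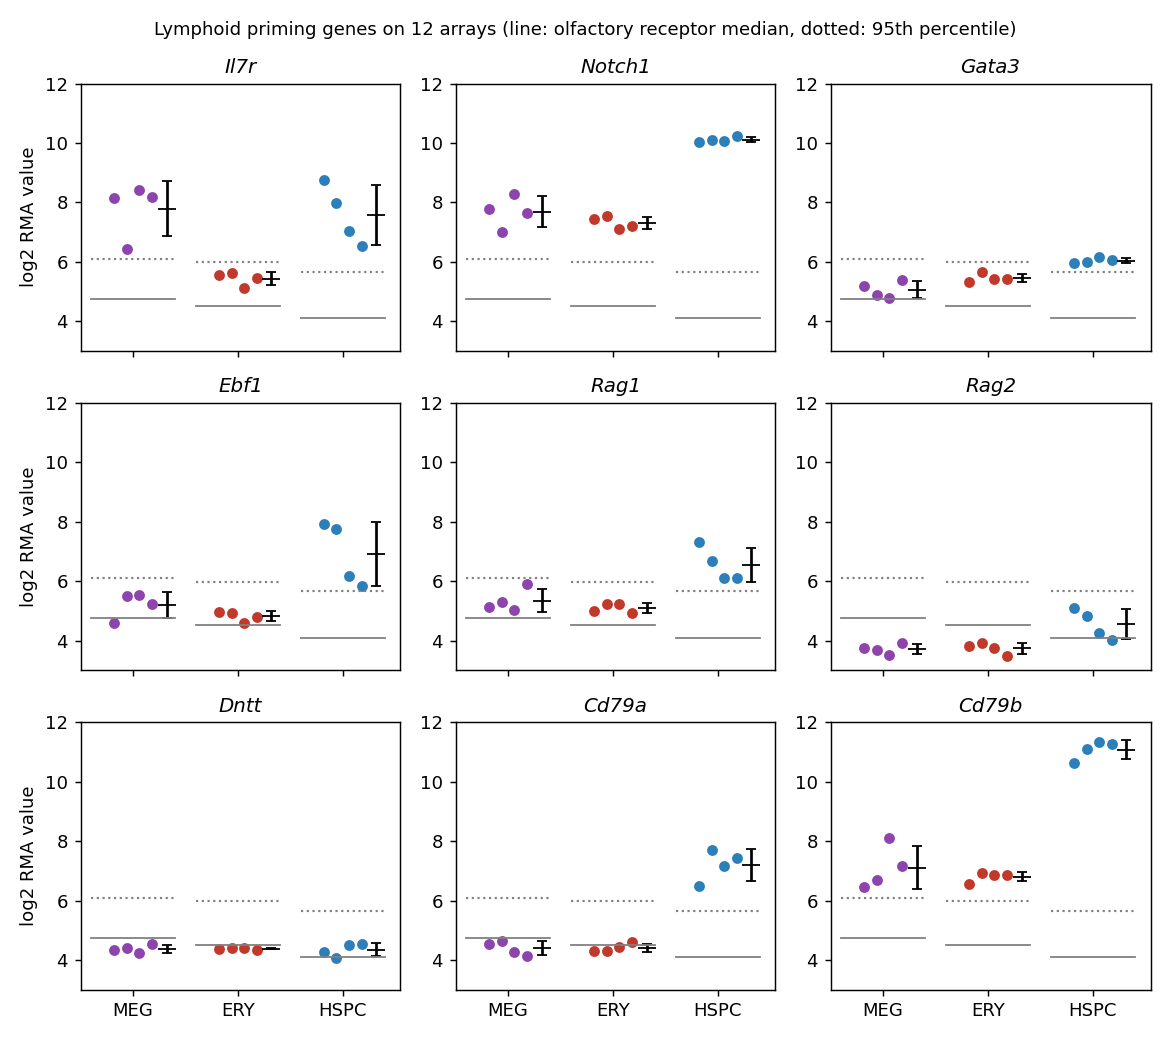
Log2 RMA value (y axis) of the 9 measured lymphoid priming genes on 4 MEG, 4 ERY and 4 HSPC arrays, with 1 point per array and the mean and SD beside them. Grey lines give the median (solid) and the 95th percentile (dotted) of olfactory receptor genes in each population. *Cd79b* and *Notch1* exceeded 10 on every HSPC array and lay at or under 8.29 on every other array, while *Il7r* was above the dotted line in MEG and in HSPC.

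Set against HSPC, the B cell receptor chains, *Notch1*, *Ebf1* and *Rag1* were lower in both MEG and ERY, and *Il7r* was called lower in ERY and not in MEG. A gene was called when it changed more than 2-fold at an adjusted p under 0.05 (limma, Benjamini-Hochberg adjustment over all 19937 genes). In MEG against HSPC, 5 of the 9 members were called lower and 0 higher, where 11.4% of all genes were called lower and 8.77% higher. In ERY against HSPC, 6 of 9 were called lower and 0 higher, where 12.3% of all genes were called lower and 8.35% higher. At an adjusted p under 0.05 without the fold limit, 7 members were lower in MEG and 8 in ERY, where 20.7% and 20.1% of all genes were. The median log2 difference of the members was -1.20 in MEG and -2.11 in ERY, beside -0.02 and 0.03 for all genes. Both comparisons use the same HSPC arrays. A lower value in a population can come from fewer cells that use the gene or from less RNA per cell, which cannot be told apart in bulk RNA.

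*Cd79b* had the largest difference of the members. It stood at 6.45, 6.71, 8.11 and 7.17 on the MEG arrays, at 6.57, 6.93, 6.87 and 6.88 on the ERY arrays, and at 10.64, 11.10, 11.34 and 11.27 on the HSPC arrays. Every HSPC array was above every MEG and ERY array by more than the spread within the groups. The difference was -3.98 ± 0.30 (SE, 15.8-fold lower, limma adjusted p = 1.18e-06) in MEG and -4.27 ± 0.30 (19.4-fold lower, adjusted p = 3.93e-07) in ERY. The highest MEG value was on array 3, which also held the highest mean of the 10 myeloid markers among the MEG arrays, at 9.14 against 6.84, 7.43 and 7.56 on arrays 1, 2 and 4. The means of the HSPC (7.71), macrophage (8.18), mast cell and basophil (6.38) and endothelial markers (7.10) were likewise highest there. Those of the MEG, ERY and hepatocyte markers were not. On that array *Cd79b* was 1.33 above the mean of the other MEG arrays, at the 98.7th percentile of all genes. The part of other cells in this value was not tested, and without MEG array 3 the difference from HSPC was -4.31.

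*Cd79a*, the partner chain, gave a like picture at a lower HSPC value. It stood at 4.55, 4.64, 4.26 and 4.14 on the MEG arrays, at 4.31, 4.31, 4.43 and 4.59 on the ERY arrays, and at 6.48, 7.71, 7.16 and 7.45 on the HSPC arrays. MEG and ERY values lay around the olfactory receptor medians (4.75 in MEG and 4.51 in ERY), so the difference there was one between HSPC and background. It came to -2.80 ± 0.23 (SE, limma adjusted p = 2.42e-06) in MEG and -2.79 ± 0.23 (adjusted p = 1.57e-06) in ERY, with no overlap of HSPC with either.

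*Notch1* had the most even values in HSPC, beside *Gata3*. It stood at 7.79, 7.0, 8.29 and 7.65 on the MEG arrays, at 7.42, 7.54, 7.10 and 7.20 on the ERY arrays, and at 10.04, 10.10, 10.07 and 10.23 on the HSPC arrays. The difference from HSPC was -2.42 ± 0.22 (SE, 5.36-fold lower, limma adjusted p = 6.09e-06) in MEG and -2.79 ± 0.22 (6.93-fold lower, adjusted p = 1.17e-06) in ERY. It remained above the 95th percentile of the background in both, with means of 7.68 ± 0.53 in MEG and 7.32 ± 0.20 in ERY (SD, n = 4 each).

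*Il7r* was the member on which MEG and ERY parted. It stood at 8.14, 6.42, 8.40 and 8.2 on the MEG arrays, at 5.57, 5.61, 5.10 and 5.46 on the ERY arrays, and at 8.77, 7.98, 7.02 and 6.53 on the HSPC arrays. The MEG values lay within the range of the HSPC values except on array 2, which was below it, and every ERY value was below every MEG and HSPC value. No ERY array was above the 95th percentile of the background, so that the differences of MEG and of HSPC from ERY are differences from background and may understate the change in RNA. In MEG against ERY the difference was 2.36 ± 0.49 (SE, 95% interval 1.29 to 3.42, limma adjusted p = 0.00273). In ERY against HSPC it was -2.14 ± 0.49 (adjusted p = 0.00435). In MEG against HSPC it was 0.22 ± 0.49 (95% interval -0.85 to 1.28, adjusted p = 0.767), an interval that leaves room for a change of either sign. Without HSPC arrays 1 and 2 the difference of ERY from HSPC was -1.34 (adjusted p = 0.0389), and without HSPC arrays 3 and 4 it was -2.94. The difference of MEG from HSPC was 1.01 without arrays 1 and 2 (adjusted p = 0.102) and -0.58 without arrays 3 and 4 (adjusted p = 0.397). With weights for array quality, MEG exceeded ERY by 1.62.

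*Ebf1* stood at 4.58, 5.49, 5.52 and 5.23 on the MEG arrays, at 4.95, 4.93, 4.61 and 4.79 on the ERY arrays, and at 7.93, 7.77, 6.18 and 5.82 on the HSPC arrays. Its HSPC values fell into a high pair, on arrays 1 and 2, and a low pair, on arrays 3 and 4, and all exceeded the MEG and ERY values, none of which was above the background. The difference was -1.72 ± 0.42 (SE, limma adjusted p = 0.00679) in MEG and -2.11 ± 0.42 (adjusted p = 0.00178) in ERY. Without HSPC arrays 1 and 2 it was -0.80 in MEG, which is under 2-fold, and -1.18 in ERY (adjusted p = 0.00274). Without HSPC arrays 3 and 4 it was -2.65 in MEG and -3.03 in ERY.

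*Rag1* stood at 5.14, 5.31, 5.04 and 5.90 on the MEG arrays, at 4.98, 5.22, 5.25 and 4.94 on the ERY arrays, and at 7.31, 6.67, 6.12 and 6.11 on the HSPC arrays. The HSPC values did not overlap with those of MEG or ERY, and on arrays 3 and 4 they were just above the highest MEG value. No MEG or ERY array was above the background for *Rag1*. The difference was -1.20 ± 0.26 (SE, limma adjusted p = 0.00351) in MEG and -1.45 ± 0.26 (adjusted p = 0.000904) in ERY. The call in MEG rests on how the arrays are weighed. The difference there was -0.95 without HSPC array 1, -0.76 without HSPC arrays 1 and 2 and -0.94 without MEG arrays 1 and 3, and each of these is under 2-fold. *Rag2* stood at 3.74, 3.67, 3.51 and 3.90 on the MEG arrays, at 3.81, 3.93, 3.75 and 3.48 on the ERY arrays, and at 5.11, 4.82, 4.24 and 4.01 on the HSPC arrays. Its HSPC values were near the median of olfactory receptor genes there, 4.09, on arrays 3 and 4 and above it on arrays 1 and 2. The differences of -0.84 ± 0.22 (SE, limma adjusted p = 0.00959) in MEG and -0.81 ± 0.22 (adjusted p = 0.0119) in ERY were under the fold limit. Without HSPC arrays 3 and 4 they were -1.26 and -1.22, past it.

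*Gata3* stood at 5.19, 4.87, 4.79 and 5.39 on the MEG arrays, at 5.31, 5.64, 5.43 and 5.42 on the ERY arrays, and at 5.97, 5.98, 6.15 and 6.05 on the HSPC arrays. Its HSPC arrays lay in a narrow band just above the background and did not overlap with the others. The difference of -0.98 ± 0.15 (SE, limma adjusted p = 0.000263) in MEG came just short of 2-fold, and was -1.02 without MEG array 1, -1.09 without MEG array 4 and -1.04 without HSPC arrays 1 and 2. In ERY it was -0.59 ± 0.15 (adjusted p = 0.00766). *Dntt* did not exceed the background in any population, with 4.32, 4.40, 4.23 and 4.53 on the MEG arrays, 4.38, 4.42, 4.39 and 4.35 on the ERY arrays, and 4.25, 4.08, 4.52 and 4.53 on the HSPC arrays. All its groups overlapped, and no level of its transcript could be told from background.

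**Figure D2:**
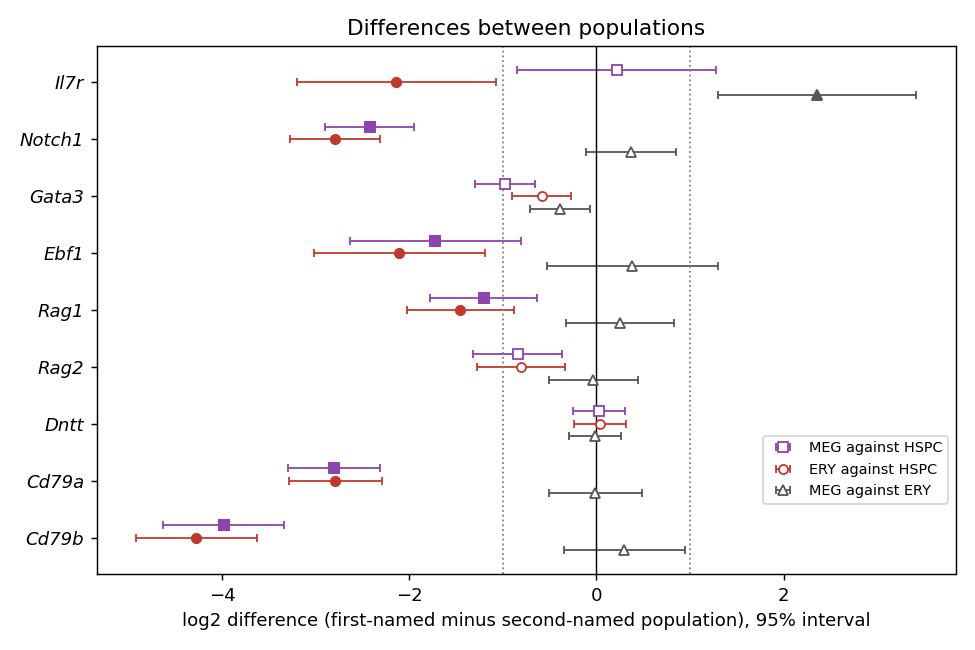
Log2 difference (x axis) of each lymphoid priming gene in MEG against HSPC (squares), ERY against HSPC (circles) and MEG against ERY (triangles), with 95% intervals from limma over 12 arrays. Filled symbols were called and dotted lines mark a 2-fold change, and *Il7r* is the single gene with a filled triangle, at 2.36.

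MEG and ERY were also compared with each other. *Il7r* was the 1 member of 9 called higher in MEG and 0 were called lower, where 8.75% of all genes were called higher and 7.77% lower, so the count is not apart from that of all genes. For the other 8 members the adjusted p (limma) lay between 0.0708 and 0.978. The interval of the difference, MEG minus ERY, was -0.51 to 0.48 for *Cd79a*, -0.35 to 0.94 for *Cd79b*, -0.11 to 0.85 for *Notch1* and -0.53 to 1.30 for *Ebf1*. For *Cd79b* and *Notch1* a 2-fold difference is outside the interval. *Cd79a* and *Ebf1* were not above the background in either population, so their intervals do not limit a difference in their RNA. *Gata3* was the nearest to a difference, at -0.39 (interval -0.71 to -0.07, adjusted p = 0.0708).

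Members varied in HSPC in different ways. For *Ebf1*, the mean of HSPC arrays 1 and 2 exceeded that of arrays 3 and 4 by 1.85, for *Il7r* by 1.60, for *Rag1* by 0.88 and for *Rag2* by 0.84. The 95th percentile of that difference over all genes was 1.48 and the median -0.19, so *Ebf1* and *Il7r* were among the upper 5% of genes. For *Notch1* (-0.08), *Gata3* (-0.12), *Cd79a* (-0.20), *Dntt* (-0.36) and *Cd79b* (-0.43) the arrays 1 and 2 were not higher. The mean of the HSPC markers also differed, at 9.60 and 9.43 on arrays 1 and 2 against 8.89 and 8.66 on arrays 3 and 4, as did that of the myeloid markers, at 10.98 and 10.70 against 10.56 and 10.28. The HSPC arrays also differed over all genes. Arrays 1 and 4 had a Pearson correlation of 0.908, the lowest of any pair within a population, and arrays 3 and 4 one of 0.994. The source of these differences, in cell makeup or otherwise, was not tested.

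**Figure D3:**
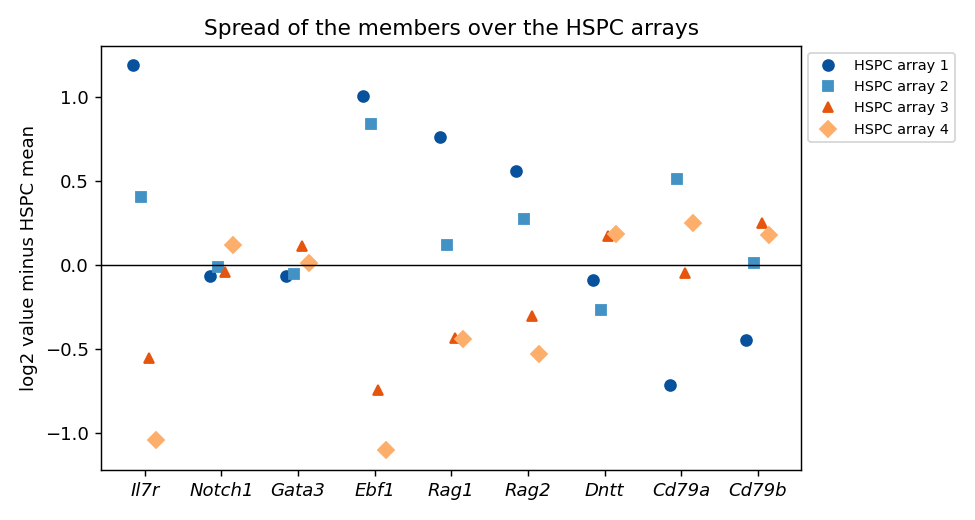
Deviation of each lymphoid priming gene from its HSPC mean (y axis, log2 units) on HSPC arrays 1 to 4. *Il7r*, *Ebf1*, *Rag1* and *Rag2* were above their mean on arrays 1 and 2 and below it on arrays 3 and 4, and *Cd79b* had its lowest value on array 1.

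Over all 12 arrays, which share the 3 population means, *Cd79b* and *Notch1* had a Pearson correlation of 0.980, *Cd79a* and *Cd79b* of 0.954, *Rag1* and *Rag2* of 0.944, and *Ebf1* of 0.915 with *Rag2* and of 0.913 with *Rag1*. *Il7r* reached at most 0.58 with another member. For the 6 members called in a comparison, the 3 most similar genes over the 12 arrays were *Igll1* (0.987), *Rangrf* and *D630045J12Rik* for *Cd79a*, *Sting1* (0.998), *Rgs19* and *Plppr3* for *Cd79b*, *Rftn1* (0.987), *Napsa* and *Gpr160* for *Notch1*, *Eif4e3* (0.970), *Zmiz1* and *Rel* for *Il7r*, *Slit2* (0.971), *4933440M02Rik* and *Mctp2* for *Rag1*, and *Ipcef1* (0.976), *Ndufaf6* and *Mctp2* for *Ebf1*. *Igll1* encodes part of the surrogate light chain with which the B cell receptor is first assembled.

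Genes that work beside the members were taken as lists. Their counts stand beside shares of all genes of 11.4% lower and 8.77% higher in MEG against HSPC. These shares were 12.3% and 8.35% in ERY against HSPC, and 7.77% and 8.75% in MEG against ERY. Of 17 measured genes of lymphoid-primed progenitors, 10 were lower and 1 higher in MEG against HSPC (median -1.84), and 11 were lower and 1 higher in ERY against HSPC (median -2.06). *Flt3*, the receptor whose ligand supports early lymphoid progenitors, averaged 5.22 ± 0.14 in MEG, 5.42 ± 0.28 in ERY and 9.63 ± 0.68 in HSPC (SD, n = 4 each). *Cd27*, a receptor of the tumour necrosis factor receptor family, averaged 5.71 ± 0.28, 5.2 ± 0.19 and 10.04 ± 0.43 in MEG, ERY and HSPC. *Satb1*, a chromatin organizer of thymocytes, was lower in MEG than in HSPC, with a difference of -3.53 (limma adjusted p = 4.77e-07). The transcription factor *Mef2c* went the other way, at 10.53 ± 0.15 in MEG against 6.03 ± 0.20 in ERY and 8.90 ± 0.95 in HSPC.

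Other B cell genes were mostly not called. Of 15 measured, 2 were lower and 1 higher in MEG against HSPC, and 3 were lower in ERY. Their median difference was -0.16 in MEG and -0.59 in ERY. Without the fold limit, *Pax5*, *Vpreb3*, *Blnk*, *Blk*, *Pou2af1* and *Bach2* were also lower in ERY (limma adjusted p = 0.00153 to 0.0345), where 20.1% of all genes were. In MEG, *Pax5*, *Blnk*, *Pou2af1* and *Cd22* were also lower (limma adjusted p = 0.00087 to 0.0403), where 20.7% of all genes were. *Igll1* averaged 6.17 ± 0.25 in MEG, 6.20 ± 0.12 in ERY and 8.66 ± 0.48 in HSPC (SD, n = 4 each), and *Vpreb3* was lower in MEG than in HSPC, with a difference of -1.02 (limma adjusted p = 0.00116). The mature B cell genes *Ms4a1*, *Cr2* and *Cd72*, and *Vpreb1*, did not exceed the background in HSPC. Of the 15 genes, 5 were above the background in MEG, 6 in ERY and 11 in HSPC, beside 55.3%, 58.2% and 65.5% of all genes. Their mean lay between 6.03 and 6.28 on the MEG arrays, 5.71 and 5.80 on the ERY arrays and 6.26 and 6.51 on the HSPC arrays. The summed level, as log2 of the sum, was 11.25 to 11.51 on the MEG arrays, 9.85 to 9.95 on the ERY arrays and 10.80 to 11.15 on the HSPC arrays. Without *Btk*, the gene called higher in MEG, it was 9.73 to 10.03 in MEG, 9.63 to 9.74 in ERY and 10.22 to 10.71 in HSPC.

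Most genes of signalling downstream of *Cd79a* and *Cd79b* were not called lower in MEG. Of 9 measured genes of B cell receptor signalling, 7 were lower in ERY against HSPC (median -2.64). In MEG against HSPC 2 were lower and 1 higher (median -0.12), and 6 were higher in MEG against ERY (median 2.51). The 2 lower in MEG against HSPC were *Ptpn6* (-1.90, limma adjusted p = 0.000558) and *Pik3cd* (-1.23, adjusted p = 0.00176). *Syk* averaged 10.57 ± 0.12 in MEG, 6.84 ± 0.27 in ERY and 9.83 ± 0.20 in HSPC (SD, n = 4 each). *Plcg2* averaged 10.91 ± 0.13 in MEG, 6.30 ± 0.15 in ERY and 10.59 ± 0.09 in HSPC. *Btk*, counted also among the B cell genes, averaged 10.67 ± 0.16 in MEG, 6.95 ± 0.14 in ERY and 8.71 ± 0.73 in HSPC, and was higher in MEG than in HSPC by 1.97 (limma adjusted p = 0.000195). *Syk*, *Btk* and *Plcg2* are also known to act behind the collagen receptor of platelets.

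**Figure D4:**
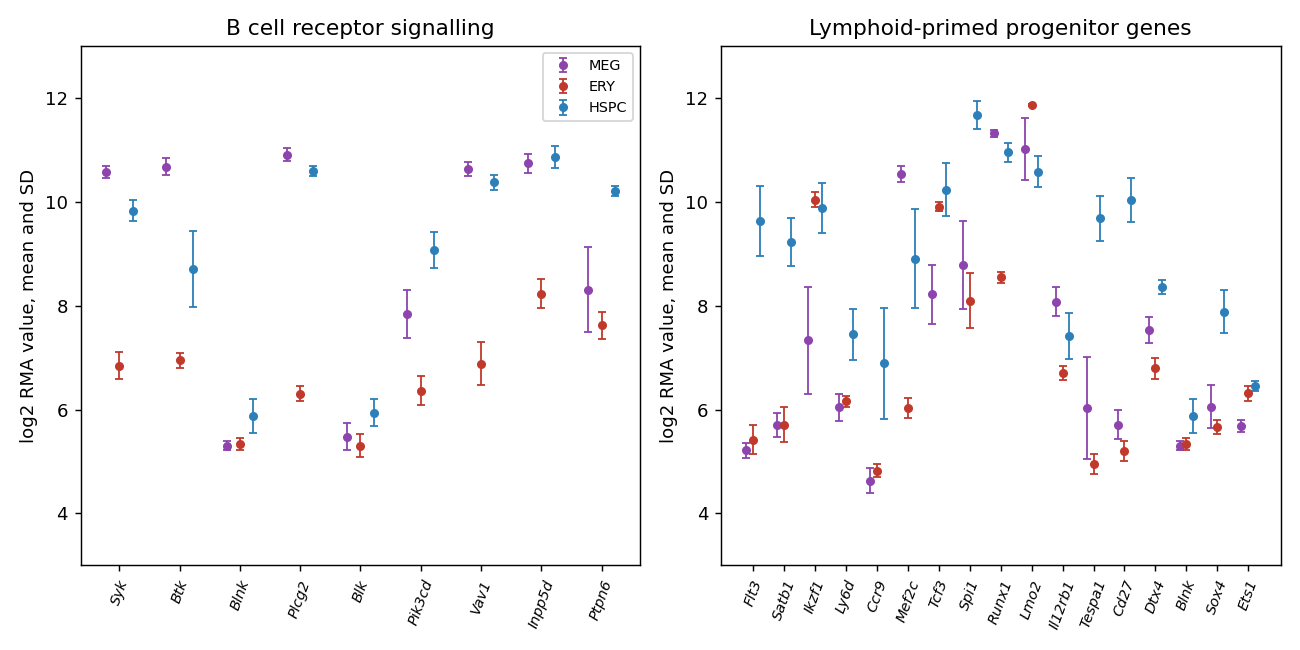
Mean log2 RMA value and SD (y axis, n = 4 arrays) in MEG, ERY and HSPC of genes of B cell receptor signalling (left) and of lymphoid-primed progenitors (right). *Syk*, *Btk*, *Plcg2* and *Vav1* were above 10 in MEG and under 7 in ERY, while *Flt3*, *Satb1* and *Cd27* were above 9 in HSPC and under 6 elsewhere.

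Around the interleukin-7 receptor, 2 of 10 measured signalling genes were higher and 1 lower in MEG against HSPC, 2 were higher and 3 lower in ERY against HSPC, and 1 was higher in MEG against ERY. *Stat5a*, a transcription factor activated by the receptor, averaged 7.70 ± 0.27 in MEG, 7.04 ± 0.21 in ERY and 9.40 ± 0.55 in HSPC (SD, n = 4 each). The kinase *Jak1*, which binds the *Il7r* chain, was higher than in HSPC in both populations. The difference was 1.63 in MEG (limma adjusted p = 0.00316) and 1.12 in ERY (adjusted p = 0.026). *Jak1* stood at 10.54, 9.98, 8.96 and 8.48 on the HSPC arrays, all below its MEG and ERY values. *Bcl2*, a survival gene downstream of the receptor, averaged 8.97 ± 0.47 in MEG, 6.81 ± 0.10 in ERY and 8.38 ± 0.66 in HSPC, and was higher in MEG than in ERY by 2.16 (adjusted p = 0.000121). *Il2rg* and *Jak3*, the partner chain and its kinase, were not analysed here.

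In the Notch pathway, 5 of 23 measured genes were lower and 2 higher in MEG against HSPC, and 7 were lower and 1 higher in ERY against HSPC. The receptor *Notch2* averaged 8.17 ± 0.45 in MEG, 7.86 ± 0.34 in ERY and 9.64 ± 0.05 in HSPC (SD, n = 4 each). Fringe enzymes, which set the receptor's choice of ligand, were lower in MEG than in HSPC for *Lfng* (-2.33, limma adjusted p = 0.000384), *Mfng* (-2.24, adjusted p = 6.47e-05) and *Rfng* (-1.44, adjusted p = 0.00107). *Rbpj*, the DNA-binding partner of the receptor, averaged 10.79 ± 0.06 in MEG, 8.51 ± 0.23 in ERY and 8.55 ± 0.78 in HSPC. Of 11 measured Notch targets, *Myc* was the 1 called against HSPC, with a difference of -2.11 in MEG and of -2.47 in ERY. Against ERY, *Trib2* and *Hes1* were higher in MEG, by 1.13 and 1.11.

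Partners of the recombinase were called in both directions in MEG. Of 11 measured, 2 were higher and 2 lower in MEG against HSPC, where 8.77% and 11.4% of all genes were, and 1 was lower in ERY. The polymerase *Poll* averaged 5.84 ± 0.24 in MEG, 5.77 ± 0.14 in ERY and 7.62 ± 0.64 in HSPC (SD, n = 4 each). The joining factors *Xrcc4* and *Lig4* were higher in MEG than in HSPC by 1.18 and 1.07 (limma adjusted p = 0.00592 and 0.00019).

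Among 11 relatives of *Tcf7*, *Gata3* and *Ebf1*, *Gata1* was higher than in HSPC in MEG (1.21, limma adjusted p = 0.0187) and in ERY (1.59, adjusted p = 0.00357), *Gata2* was lower in ERY (-2.86) and *Tcf7l2* was lower in MEG (-1.36). Of 16 other T cell genes, 3 were lower and 2 higher in MEG, and 3 were lower in ERY. *Cd28*, a costimulatory receptor of T cells, averaged 10.50 ± 0.38 in MEG, 5.06 ± 0.34 in ERY and 5.86 ± 0.54 in HSPC (SD, n = 4 each), the largest increase in MEG against HSPC among the called genes of the lymphoid lists. *Lat*, an adaptor of T cells that platelets also use, averaged 10.97 ± 0.30 in MEG, 6.57 ± 0.27 in ERY and 9.37 ± 0.88 in HSPC. The T cell receptor genes *Cd3d* and *Cd247* did not exceed the background in any population. *Cd3e* exceeded it in ERY (6.16) and in HSPC (6.24), and not in MEG (5.98). Of the 16 genes, 3 were above the background in MEG, 6 in ERY and 10 in HSPC, beside 55.3%, 58.2% and 65.5% of all genes. *Cd3g* and *Cd4* were lower in MEG than in HSPC, with differences of -1.52 and -1.5.

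The direction of the *Notch1*, *Cd79a*, *Cd79b*, *Ebf1*, *Rag1* and *Gata3* differences from HSPC was the same under each scaling tried. Centring on ribosomal protein genes moved the median of all genes to 0.56 in MEG against HSPC and to 0.47 in ERY, and the share of calls that were higher, 43.5% in MEG and 40.5% in ERY, became 82.7% and 68.3%. Relative to that scale the *Rag1* difference in MEG was -0.62 (adjusted p = 0.0581), without a call, and that of *Dntt* was 0.61.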

How the data were processed

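Gene expression was measured on 12 arrays, 4 each of MEG, ERY and HSPC. The deposited log2 values, 1 for each array and probe set, had been made by the authors with RMA. The sources used here give neither its version and settings nor a probe filter, and the study's supplemental methods were not used here. RMA is meant to equalize the distributions of the arrays, so a shift shared by all genes of a population would largely not be seen. The deposited values were not fully equal. Array medians were 5.99 to 6.25, and the olfactory receptor median was 4.75 in MEG, 4.51 in ERY and 4.09 in HSPC. Values near background were thus not on the same level in the 3 populations. Precision follows from the number of arrays, and p-values cover the spread between these arrays. Whether they came from separate litters or cultures is not given in the labels.

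Of 34760 probe sets, 21640 carried 1 gene symbol and were used, 1321 carried several and 11799 were not in the annotation. Of 19937 genes, 954 had more than 1 probe set, from which the highest by its mean over the arrays was kept. The members and lists (241 entries in 19 lists, of which 219 were measured) were chosen with earlier results of these data known. Genes named are the 10 members, up to 4 called genes of each list with the largest change in a comparison, the 3 genes most like each called member, and the markers. Others named as above or not above background, as not analysed, or for a difference not among those 4, were chosen after their values were seen. So were the values of genes under comparisons in which they were not among those 4.

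limma 3.58.1 in R 4.3.3 was fitted with 1 mean per population over all 12 arrays, with Benjamini-Hochberg adjustment over all genes and no limit on low values. A call needed a 2-fold change at an adjusted p under 0.05, which is the study's fold and FDR of 5%. The fit was tested on simulated data. Alternatives covered the arrays in the fit, genes tested, scaling, low values, variance, thresholds, probe sets and a replicate block. Promoter windows came from RefSeq (GRCm38.p6) and matched 9 of 10 members, with none for *Cd79b*. Python 3.11.15, pandas 2.3.3, numpy 2.4.6 and matplotlib 3.10.9 were used.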

Additional observations from a re-analysis of the deposited data

Results flagged for a closer look

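*Il7r* on MEG array 2 stood apart from the other MEG arrays, at 6.42, with a gap of 1.72 to the nearest. Without it, MEG exceeded ERY by 2.81 (limma adjusted p = 0.000369) and HSPC by 0.67 (adjusted p = 0.252). *Cd79b* on ERY array 1 was the lowest of its group, at 6.57, with a gap of 0.30. Of 27 groups of 4 arrays examined in this way, 2 were past the 95% critical value, and chance alone passes about 5% of groups.

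The change of *Il7r* from HSPC differed between MEG and ERY by 2.36, which is the test of MEG against ERY itself (limma adjusted p = 0.00273), since both changes use the same HSPC arrays.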

How the results depend on the processing

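The counts of called members kept within 1.5 times under 28 of 29 alternatives for each of members lower in MEG, members lower in ERY and members higher in MEG against ERY. The exception was a test against the 2-fold limit itself (treat), with 3 lower in MEG, 3 lower in ERY and 0 higher in MEG against ERY. Leaving out 1 array gave 4 to 6 lower in MEG, 6 in ERY and 1 higher in MEG against ERY. Whether replicate numbers pair the arrays of different populations is not given in the labels. Arrays of the same number correlated between -0.41 and 0.33 after removal of population means, with 4 of 12 pairs above 0.1. With the number as a replicate block the counts were 5, 6 and 1, and *Il7r* in MEG against ERY had an adjusted p (limma) of 0.00569.

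Sign changes concerned differences that were not called, and the cause was not tested. *Il7r* in MEG against HSPC was -0.58 without HSPC arrays 3 and 4, -0.27 without MEG arrays 1 and 3, -0.034 with array weights, and -0.13 to 0.67 without 1 array. *Dntt* in MEG against HSPC was -0.15 without HSPC arrays 1 and 2, -0.16 with quantile normalization, -0.028 with low values raised, -0.12 with array weights and -0.063 to 0.087 without 1 array, and in ERY -0.14, -0.14, -0.056, -0.11 and -0.049 to 0.10. In MEG against ERY, *Dntt* was 0.080 without MEG arrays 1 and 3, 0.14 with ribosomal centring, 0.028 with low values raised and -0.068 to 0.033 without 1 array. There *Rag2* was 0.047, 0.11 and -0.12 to 0.031 (MEG arrays 1 and 3, ribosomal centring, 1 array left out), and *Cd79a* was 0.14, 0.043, 0.10 and -0.095 to 0.072 (ribosomal centring, low values raised, array weights, 1 array left out). *Cd79b* was -0.037 to 0.52 without 1 array. With array weights, *Rag1* and *Ebf1* in MEG against HSPC were -0.90 and -0.81, without a call.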

Other observations

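Genes of natural killer and innate lymphoid cells, which share *Il7r* and *Gata3* with T cells, were read beside the members. Of 13 measured, 3 were lower in MEG against HSPC, 4 were lower in ERY against HSPC and 2 were higher in MEG against ERY. *Nkg7*, a granule gene of cytotoxic cells, averaged 8.33 ± 1.34 in MEG, 5.80 ± 0.19 in ERY and 11.35 ± 0.41 in HSPC (SD, n = 4 each). *Il2rb*, a receptor chain for interleukins of these cells, averaged 4.62 ± 0.24 in MEG, 4.66 ± 0.20 in ERY and 6.71 ± 0.40 in HSPC. *Zbtb16*, a transcription factor of innate lymphocytes, was higher in MEG than in ERY by 2.64 (limma adjusted p = 7.79e-07). *Ncr1*, *Klrb1c*, *Klrd1* and *Eomes* did not exceed the olfactory receptor background in any population. Mast cell and basophil genes averaged 5.01 to 6.38 on the MEG arrays, 5.2 to 5.58 on the ERY arrays and 6.07 to 6.33 on the HSPC arrays, and 2 of 10, *Hdc* and *Cpa3*, were lower than in HSPC in both. Of 10 endothelial genes, 1 was higher and 4 lower in MEG against HSPC, and 3 were higher and 4 lower in ERY.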
